A study of Mus musculus with 4 samples.

Results

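The genes of fatty acid, cholesterol and triglyceride synthesis were examined in cells sorted from mammary glands of female mice aged 5 weeks. The set holds 43 genes, taken by symbol from a count table of 24442 genes, and it covers the enzymes, their sterol-sensing regulators and the proteins that take up, bind and store fatty acids. All 43 symbols were found, and 41 passed the filter on low counts. Thrsp, a lipogenic nuclear protein, had no counts in any library, and Fabp3, a fatty acid binding protein known from heart muscle, had 1 count in 1 Lgr6-negative library, so neither was tested.

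The compared groups were Lgr6-positive and Lgr6-negative cells, with 2 libraries of each. All came from Lgr6-eGFP-CreErt2 mice, which carry a fluorescent protein and a tamoxifen-inducible recombinase under control of the Lgr6 locus, so both populations share these alleles. No treatment is named. Lgr6 encodes a receptor for R-spondins. Cells were sorted after removal of lineage-positive cells, but which markers defined the lineages, and how Lgr6-negative cells were gated, is not stated in the sources used here. Whether each replicate is a separate animal or a pool is not stated, so p-values cover just the variation among these 4 libraries, and that may be technical.

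Cytosolic acetyl-CoA, made from citrate or acetate, is carboxylated and built into palmitate by fatty acid synthase. Desaturases and elongases then turn palmitate into the longer and unsaturated chains of membranes and triglycerides. The mevalonate pathway uses the same acetyl-CoA for isoprenoids and cholesterol. The transcription factors SREBP-1 and SREBP-2, which are escorted by Scap and held back by Insig proteins, raise both sets of enzymes. The lactating mammary gland is known for high lipogenesis, since its alveolar cells secrete milk fat.

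The promoters of Hmgcs1 and Idi1, from RefSeq (build GRCm38.p6), are shown because these 2 enzymes of the cholesterol branch passed the test below. Each window runs from 250 bases before to 50 bases after the annotated start, on the coding strand. Capitals mark matches on either strand to a sterol regulatory element (TCACNCCAC) or to a CCAAT box, the site known to bind NF-Y, which reads ATTGG on the opposite strand. The 2 kinds of match do not overlap in these windows. Hmgcs1 lies at chr13:119690101-119690400 and Idi1 at chr13:8885356-8885655, both on the plus strand.
Hmgcs1: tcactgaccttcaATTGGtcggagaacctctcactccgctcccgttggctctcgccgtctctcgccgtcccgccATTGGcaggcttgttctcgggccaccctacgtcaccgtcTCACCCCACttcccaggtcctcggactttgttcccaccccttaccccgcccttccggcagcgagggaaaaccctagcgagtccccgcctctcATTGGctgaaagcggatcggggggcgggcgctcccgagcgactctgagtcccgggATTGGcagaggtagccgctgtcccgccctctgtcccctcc
Idi1: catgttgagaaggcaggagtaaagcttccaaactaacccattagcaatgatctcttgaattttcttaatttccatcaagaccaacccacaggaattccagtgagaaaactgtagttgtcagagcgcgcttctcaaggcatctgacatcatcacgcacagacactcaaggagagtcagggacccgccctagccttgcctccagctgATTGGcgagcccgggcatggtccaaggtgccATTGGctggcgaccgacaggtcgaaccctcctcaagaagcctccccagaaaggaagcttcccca

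The Hmgcs1 window held 1 sterol regulatory element, at position -137 from the start, and 4 CCAAT boxes, while the Idi1 window held 2 CCAAT boxes and no sterol element of these letters. A promoter was listed for 32 of the 43 genes, some with several starts. A CCAAT box was present in a window of 24 of these 32 (75.0%), against 41.1% of all 27025 genes in the table, and among tested genes in 23 of 30 members (76.7%) against 42.4% of 8862. The sterol element was found in 2 of the 32, Hmgcs1 and Acsl1 (6.25%, against 1.44% of all genes), both tested (6.67% of 30, against 1.41% of tested genes). An E-box of the letters CACGTG was found in 5 of the 32 (15.6%, against 8.09%), all 5 tested (16.7% of 30, against 11.7% of tested genes). These matches describe letters only and were not tested.

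The sort was checked by Lgr6, which had 172 and 655 counts in Lgr6-positive libraries, against 3 and 10 counts in Lgr6-negative libraries. The log2 fold change of Lgr6 was 5.52 with an SE of 1.47 (adjusted p = 0.0510 in edgeR). It missed the threshold of 0.05 there and in limma-voom, but passed in DESeq2. Libraries held between 6819127 and 7167465 counts. They were made from RNA at 7 to 25 pg per µl, with RNA integrity numbers of 5 to 8, 18 PCR cycles and reads of 50 bases. Those RNA values are ranges, not given for each library. The part of low input and RNA quality in counts of 0 and in gaps between replicates was not tested. The rRNA precursor Rn45s took 14.5% and 17.2% of the counts in Lgr6-positive libraries and 18.7% and 30.8% in Lgr6-negative libraries. Levels are given as CPM, a count scaled to library size with TMM factors, and 3 counts are worth 0.368 to 0.533 CPM. Of 11 mammary epithelial markers, 10 were higher in Lgr6-positive cells, with summed levels of 7140.3 and 7086 CPM against 221 and 262 CPM in Lgr6-negative cells. All 10 leukocyte markers were lower, with sums of 2017 and 2320.5 CPM in Lgr6-positive, against 30556 and 34708 CPM in Lgr6-negative libraries, and no marker of either list was at 0 in any library. The part of these markers in the lipid results was not tested. In such bulk samples, fewer cells of a type and less RNA per cell cannot be told apart.

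Of the 41 tested genes, 11 were higher in Lgr6-positive cells at an adjusted p under 0.05 in edgeR, which is 26.8% of them, and 4.49% of all 11661 tested genes passed in that direction and 9.06% in either direction. These were Scd1, Fads2, Elovl6 and Elovl7 among the desaturases and elongases, Acacb and Me1 in fatty acid synthesis, Idi1 and Hmgcs1 in cholesterol synthesis, the transcription factor gene Srebf1, and Lpl and Cd36 in fatty acid uptake. No member was lower in edgeR, where 4.57% of all genes passed, and none was lower at an unadjusted p under 0.05 (10.8% of all genes), in DESeq2 or in limma-voom. At an unadjusted p under 0.05, 18 of the 41 were higher, and 14.3% of all tested genes were. DESeq2 called 15 higher (12.1% of all genes) and limma-voom 10 (6.47%). The median log2 fold change was 1.79 over the tested members and 0.10 over all tested genes. Both Lgr6-positive libraries lay above both Lgr6-negative libraries for 24 of the 41 (30.0% of all genes did so) and below them for 4 (25.9% of all genes). Scd1, Fads2, Elovl6, Elovl7, Idi1 and Lpl passed under all 12 alternative settings, and the other 5 each lost the call in at least 1. Without replicate 2 of the Lgr6-negative cells, 8 members passed.

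**Figure D1:**
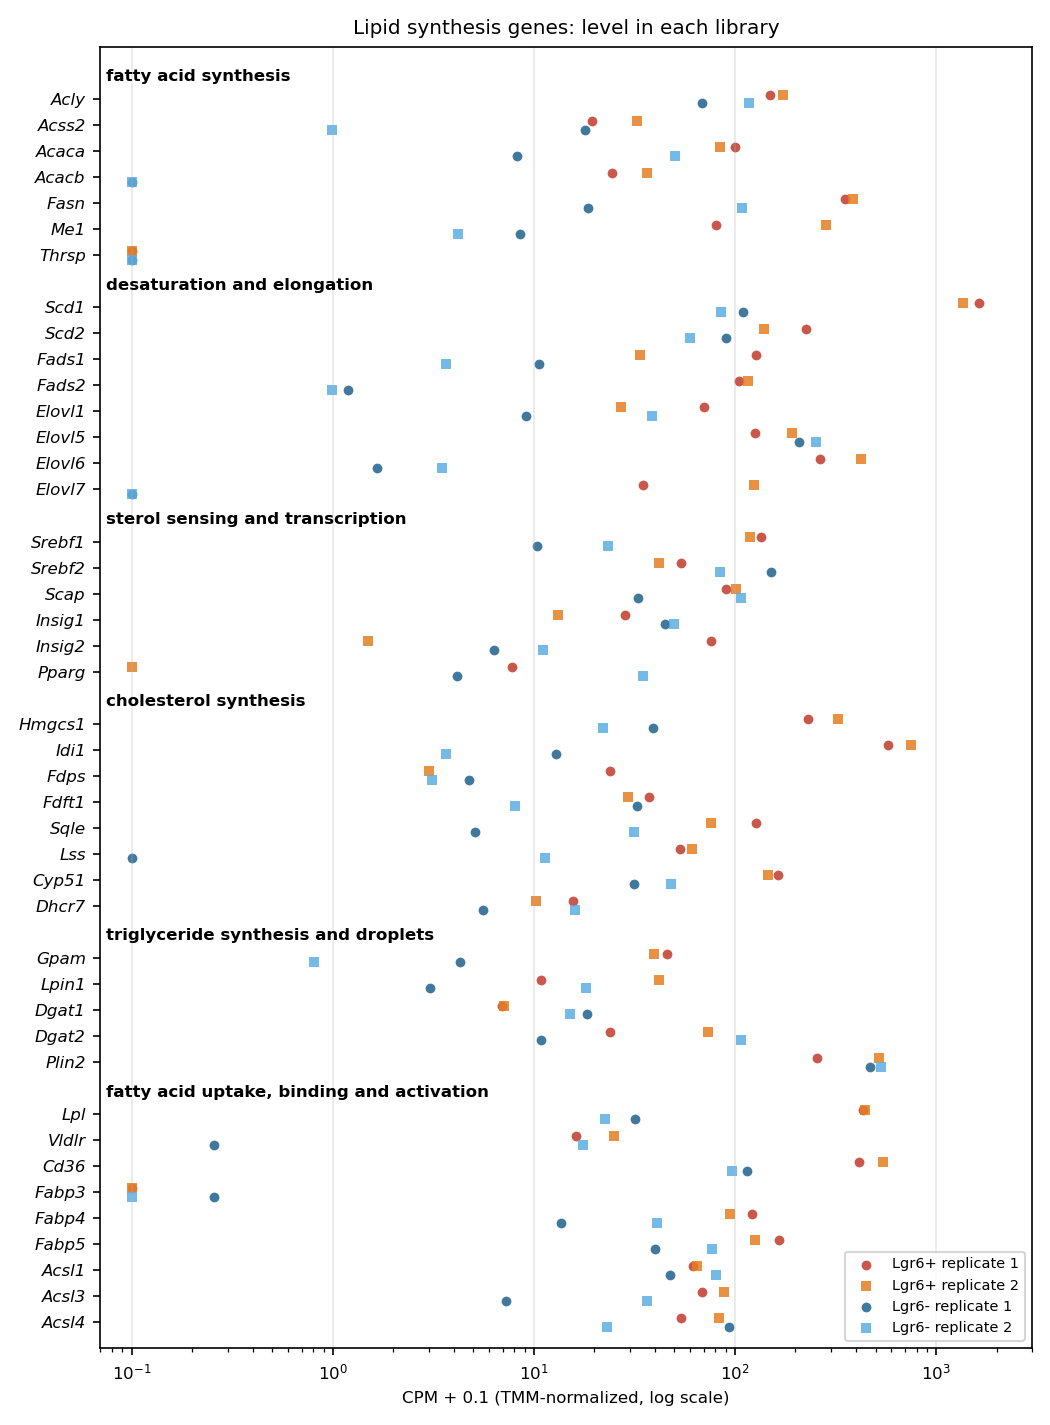
Level of each of the 43 genes in the 4 libraries, as CPM + 0.1 on a log scale, in groups by role. Red and orange points are Lgr6-positive and blue points Lgr6-negative libraries, and points at the left edge of the scale had no counts. Acacb and Elovl7 had counts in Lgr6-positive libraries alone, while the points of Lgr6-positive and Lgr6-negative libraries overlap in Plin2 and Acsl1.

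Every tested gene of fatty acid synthesis had both Lgr6-positive libraries above both Lgr6-negative libraries, as did 30.0% of all tested genes. Of the 6, only Acacb and Me1 passed (4.49% of all tested genes were higher), and 3 had an unadjusted p under 0.05 (14.3%). Acacb, the mitochondrial acetyl-CoA carboxylase whose malonyl-CoA is known to restrain fatty acid oxidation, had 199 and 287 counts in Lgr6-positive libraries and none in Lgr6-negative libraries, where 3.88% of all tested genes had none. Against a floor of 3 counts in each Lgr6-negative library it was at least 60.7-fold higher (adjusted p = 0.0315). It did not pass when either Lgr6-negative library was left out (0.0835 for replicate 1 and 0.0781 for replicate 2), in a range that began at 1.11e-05. The gene spans bases 114146535 to 114250761 of chromosome 5, plus strand, in GRCm38, the build of all positions here. Such floors and intervals cover counting error only, since amplified reads are not independent molecules.

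Me1, the cytosolic malic enzyme that supplies NADPH for lipogenesis (chromosome 9, 86581371 to 86695953, minus strand), reached 80.4 and 283 CPM in Lgr6-positive libraries, against 8.43 and 4.09 CPM in Lgr6-negative libraries. The Lgr6-positive libraries stood well above the others but differed from each other by more than 3-fold. The log2 fold change was 4.85 (SE 0.88, adjusted p = 0.0114). It did not pass in limma-voom (0.122), without replicate 2 of the Lgr6-positive cells (0.0798) or without replicate 2 of the Lgr6-negative cells (0.0605), with a lowest value of 1.41e-07 over the alternatives.

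Fasn, which encodes fatty acid synthase, missed the threshold. It had 351 and 384 CPM in Lgr6-positive libraries, against 18.6 and 108.8 CPM in Lgr6-negative libraries (log2 fold change 2.53 with an SE of 0.74, adjusted p = 0.0693). The Lgr6-positive libraries were close together, and the wide gap lay between the Lgr6-negative ones. Fasn passed under 8 of 12 alternatives, among them DESeq2 (0.0107), limma-voom (0.0230) and the fit without replicate 2 of the Lgr6-negative cells (0.0102), in a range of 9.53e-05 to 0.127. Acaca, the cytosolic carboxylase that feeds Fasn, showed the same split, at 100.4 and 84.4 CPM in Lgr6-positive, against 8.11 and 50.1 CPM in Lgr6-negative libraries (log2 fold change 1.67, adjusted p = 0.334). Acly, which cleaves citrate to acetyl-CoA, had 149.7 and 172.5 CPM in Lgr6-positive, against 68.8 and 117 CPM in Lgr6-negative libraries (log2 fold change 0.79, adjusted p = 0.434). Acss2, which makes acetyl-CoA from acetate, had 19.4 and 32.6 CPM in Lgr6-positive, against 17.9 and 0.889 CPM in Lgr6-negative libraries (log2 fold change 1.46, adjusted p = 0.656). For Acly and Acss2 the nearest libraries of the 2 populations almost met.

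Desaturases and elongases stood first among the 6 roles by their median log2 fold change, 3.73. Of 8 genes, 4 were higher (4.49% of all tested genes) and 6 had an unadjusted p under 0.05 (14.3% in this direction). Scd1, the stearoyl-CoA desaturase that makes monounsaturated fatty acids (chromosome 19, 44394455 to 44407879, minus strand), had 1634 and 1359 CPM in Lgr6-positive libraries, against 109.8 and 85.1 CPM in Lgr6-negative libraries. The libraries of each population lay close together (log2 fold change 3.94 with an SE of 0.34, adjusted p = 5.55e-04). Scd1 alone made up 24.7% and 18.8% of the summed CPM of the 43 genes in Lgr6-positive libraries, against 6.15% and 3.80% in Lgr6-negative libraries. Its paralog Scd2, on the same chromosome, had 226 and 140.0 CPM in Lgr6-positive, against 90.0 and 59.4 CPM in Lgr6-negative libraries (log2 fold change 1.29 with an SE of 0.55, adjusted p = 0.184). Within a library, where scaling cancels, Scd1 had 7.23 and 9.71 counts for each count of Scd2 in Lgr6-positive libraries and 1.22 and 1.43 in Lgr6-negative libraries. Both genes had fractional estimated counts, so some of their reads were divided among genes by estimate, and that split is uncertain.

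Fads2, the delta-6 desaturase at the entry to polyunsaturated fatty acid synthesis (chromosome 19, 10062765 to 10101746, minus strand), had 105 and 116 CPM in Lgr6-positive libraries, against 1.09 and 0.889 CPM in Lgr6-negative libraries. The libraries of each population lay close together, but the Lgr6-negative values rest on just 7 and 5 counts. The log2 fold change was 6.78 (SE 0.98, adjusted p = 0.00420). Its neighbour Fads1, the delta-5 desaturase, was less even, at 127.6 and 33.7 CPM in Lgr6-positive, against 10.5 and 3.56 CPM in Lgr6-negative libraries. It did not pass (log2 fold change 3.52 with an SE of 1.12, adjusted p = 0.0857), except without a filter (0.0187), in DESeq2 (0.00416) and without replicate 2 of the Lgr6-positive cells (0.0160), in a range up to 0.395.

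Among the elongases, Elovl6 and Elovl7 were higher and Elovl1 and Elovl5 did not pass. Elovl6, which extends palmitate to stearate (chromosome 3, 129532355 to 129638495, plus strand), had 264 and 421 CPM in Lgr6-positive libraries, against 1.56 and 3.38 CPM in Lgr6-negative libraries (log2 fold change 7.11 with an SE of 0.70, adjusted p = 8.72e-04). Elovl7, a related elongase (chromosome 13, 108214404 to 108285683, plus strand), had 285 and 985 counts in Lgr6-positive libraries, against none in Lgr6-negative libraries. This made it at least 159.5-fold higher against 3 counts per Lgr6-negative library (adjusted p = 0.00821). Elovl5, which elongates polyunsaturated chains, ran the other way, at 126 and 193 CPM in Lgr6-positive, against 209 and 252 CPM in Lgr6-negative libraries (log2 fold change -0.53 with an SE of 0.46, adjusted p = 0.556). There were 2.10 and 2.18 counts of Elovl6 for each count of Elovl5 in Lgr6-positive libraries, against 0.00746 and 0.0134 in Lgr6-negative libraries. Elovl1, an elongase of very long chains, overlapped between populations, at 70.3 and 27.1 CPM in Lgr6-positive, against 9.05 and 38.6 CPM in Lgr6-negative libraries (log2 fold change 1.03, adjusted p = 0.650).

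**Figure D2:**
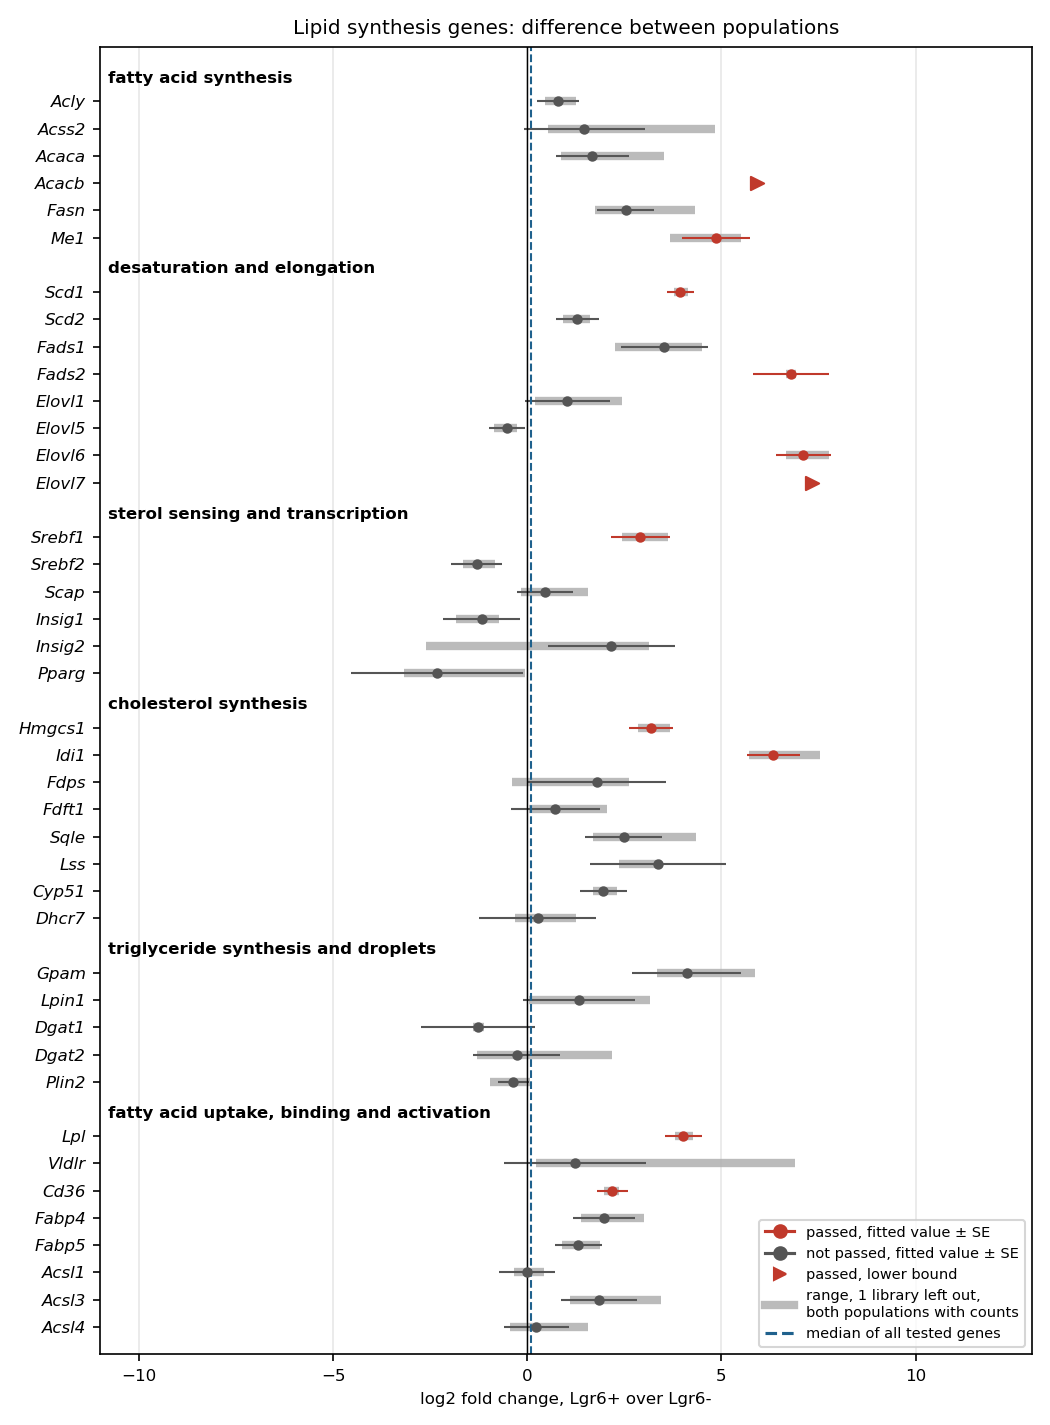
Log2 fold change of Lgr6-positive over Lgr6-negative cells for the 41 tested genes. Points are fitted values with SE, red where the adjusted p was under 0.05, grey bars give the range when 1 library is left out and both populations keep counts, and triangles are lower bounds for Acacb and Elovl7. All red symbols lie to the right of the dashed median of all tested genes at 0.10, and the bars of Insig2, Scap, Fdps, Dhcr7, Dgat2, Plin2, Acsl1 and Acsl4 cross 0.

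The 6 regulators were mixed, with 1 higher (4.49% of all genes), 5 that did not pass and a median log2 fold change of -0.36. Srebf1, which encodes SREBP-1, the activator best known for fatty acid enzymes (chromosome 11, 60199089 to 60222581, minus strand), had 135 and 118 CPM in Lgr6-positive libraries, against 10.3 and 23.3 CPM in Lgr6-negative libraries. The populations did not overlap (log2 fold change 2.91 with an SE of 0.76, adjusted p = 0.0472). The call did not hold in limma-voom (0.0572), without replicate 1 of the Lgr6-positive cells (0.0781) and when either Lgr6-negative library was left out (0.178 for replicate 1 and 0.0795 for replicate 2), and the lowest value was 9.72e-04. Srebf2, for SREBP-2, best known for cholesterol enzymes, had 53.7 and 41.6 CPM in Lgr6-positive, against 151.5 and 84.4 CPM in Lgr6-negative libraries (log2 fold change -1.31 with an SE of 0.65, adjusted p = 0.266). The balance of the pair within a library was 2.51 and 2.84 counts of Srebf1 for each count of Srebf2 in Lgr6-positive libraries, against 0.068 and 0.276 in Lgr6-negative libraries. Of 7 such pairs, formed after the levels were seen and not tested, those of Scd1 to Scd2, Elovl6 to Elovl5, Srebf1 to Srebf2 and Fads2 to Fads1 did not overlap between populations. Fads2 had 0.823 and 3.45 counts for each count of Fads1 in Lgr6-positive libraries, against 0.104 and 0.25 in Lgr6-negative libraries. The ratio of Insig1 to Insig2 overlapped, at 0.375 and 9.36 in Lgr6-positive libraries, against 7.15 and 4.5 in Lgr6-negative libraries. That of Dgat1 to Dgat2 overlapped too, at 0.289 and 0.095 in Lgr6-positive libraries, against 1.7 and 0.14 in Lgr6-negative libraries. Acaca to Acacb was 4.12 and 2.32 in Lgr6-positive libraries and has no value in Lgr6-negative libraries, where Acacb had no counts.

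Scap, the SREBP escort and sterol sensor, was similar in 3 libraries, at 90.4 and 101 CPM in Lgr6-positive, against 32.9 and 107 CPM in Lgr6-negative libraries (log2 fold change 0.45, adjusted p = 0.785). Insig1, an endoplasmic reticulum anchor that is itself a target of SREBPs, had 28.4 and 13.1 CPM in Lgr6-positive, against 44.6 and 49.6 CPM in Lgr6-negative libraries (log2 fold change -1.18 with an SE of 0.99, adjusted p = 0.542). Both Lgr6-positive libraries were below both others. Insig2, the second anchor, differed most between replicates of all 41 genes in the Lgr6-positive cells, at 75.9 and 1.39 CPM, against 6.24 and 11.0 CPM in Lgr6-negative cells. Its log2 fold change of 2.16 (adjusted p = 0.493) turned to -2.61 without replicate 1 of the Lgr6-positive cells. Pparg, the adipogenic nuclear receptor, had 63 and 0 counts in Lgr6-positive, against 26 and 196 counts in Lgr6-negative libraries (log2 fold change -2.33, adjusted p = 0.608), so each population held a high and a low library.

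In cholesterol synthesis 2 of 8 genes were higher (4.49% of all genes), and 4 had an unadjusted p under 0.05 (14.3% in this direction). The 6 that did not pass all had positive fold changes, and the median over the 8 was 2.22. Hmgcs1, which condenses acetyl-CoA to HMG-CoA at the head of the pathway (chromosome 13, 119690379 to 119708260, plus strand), had 231 and 327 CPM in Lgr6-positive libraries, against 39.2 and 21.9 CPM in Lgr6-negative libraries (log2 fold change 3.19 with an SE of 0.56, adjusted p = 0.0105). Without replicate 2 of the Lgr6-negative cells its adjusted p was 0.0578, the highest in a range from 6.33e-06. Idi1, the isomerase of isopentenyl diphosphate (chromosome 13, 8885501 to 8892451, plus strand), had 579.9 and 752 CPM in Lgr6-positive, against 12.8 and 3.56 CPM in Lgr6-negative libraries (log2 fold change 6.34 with an SE of 0.69, adjusted p = 0.00133). These are the genes whose promoters are printed above. Of the exonic bases of Hmgcs1, 12.1% also lie in exons of other genes, as do 9.22% of those of Idi1, and the counts could include reads of those genes.

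Of the 6 later enzymes, Cyp51, Sqle and Lss had both Lgr6-positive libraries above both Lgr6-negative libraries, as did 30.0% of all tested genes. The other 3 enzymes overlapped between populations. Cyp51, the lanosterol demethylase, had 164 and 147 CPM in Lgr6-positive, against 31.5 and 48.2 CPM in Lgr6-negative libraries (log2 fold change 1.96 with an SE of 0.60, adjusted p = 0.0768). It passed in DESeq2 (0.0130) and under library-size scaling (0.0406), in a range up to 0.277. Sqle, squalene epoxidase, had 128 and 75.8 CPM in Lgr6-positive, against 4.99 and 31.5 CPM in Lgr6-negative libraries (log2 fold change 2.48, adjusted p = 0.156). Lss, lanosterol synthase, had 436 and 484 counts in Lgr6-positive, against 0 and 63 counts in Lgr6-negative libraries (log2 fold change 3.36, adjusted p = 0.293), so its Lgr6-negative counts came from replicate 2 alone. In Sqle and Lss the wide gap thus lay between the Lgr6-negative libraries. Fdft1, squalene synthase, was at 37.4 and 29.3 CPM in Lgr6-positive, against 32.5 and 8.00 CPM in Lgr6-negative libraries, and Dhcr7, the last reductase of the pathway, at 15.6 and 10.1 CPM in Lgr6-positive, against 5.46 and 16.0 CPM in Lgr6-negative libraries. Both overlapped between populations, as did Fdps, farnesyl diphosphate synthase, at 23.8 and 2.91 CPM in Lgr6-positive, against 4.68 and 3.02 CPM in Lgr6-negative libraries. Exons of other genes overlap 18.3% of the exon length of Fdft1 and 26.7% of that of Fdps, and Fdft1 had fractional counts.

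Of the 5 genes of triglyceride synthesis and lipid droplets, none passed in edgeR (4.49% of all tested genes were higher and 4.57% lower). The median log2 fold change was -0.28. At an unadjusted p under 0.05, 1 was higher (14.3% of all tested genes). DESeq2 called 1 higher (12.1% of all tested genes) and limma-voom called 0 (6.47%). That gene was Gpam, the acyltransferase that starts glycerolipid synthesis in mitochondria, with 46.0 and 39.5 CPM in Lgr6-positive libraries, against 4.21 and 0.711 CPM in Lgr6-negative libraries (log2 fold change 4.10 with an SE of 1.41, adjusted p = 0.106, and 0.00456 in DESeq2, in a range up to 0.284). Dgat1 and Dgat2 encode the acyltransferases of the last step. Dgat1 had 6.87 and 6.97 CPM in Lgr6-positive, against 18.3 and 15.1 CPM in Lgr6-negative libraries (log2 fold change -1.27 with an SE of 1.47, adjusted p = 0.689), below in both libraries. Dgat2 had 23.8 and 73.4 CPM in Lgr6-positive, against 10.8 and 107.5 CPM in Lgr6-negative libraries (log2 fold change -0.28, adjusted p = 0.926), and its fold change was positive under library-size scaling. Lpin1, the phosphatidate phosphatase, overlapped at 10.8 and 41.9 CPM in Lgr6-positive, against 2.96 and 18.1 CPM in Lgr6-negative libraries.

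Plin2, the coat protein of lipid droplets, was among the most abundant members in both populations. It had 255 and 523 CPM in Lgr6-positive libraries, against 467 and 530.4 CPM in Lgr6-negative libraries (log2 fold change -0.36 with an SE of 0.41, adjusted p = 0.683), and its sign turned under library-size scaling. Levels were also divided by the merged length of all annotated exons of a gene. This length can exceed that of the transcripts present, as for Fabp4, where it was the whole gene (4.489 kb). The order of genes therefore holds for this measure only. On it, the highest mean level in Lgr6-positive cells was that of Scd1 at 306 ± 39.8 CPM per kb (SD, n = 2). Next came Idi1 at 190.0 ± 34.7, Cd36 at 133.5 ± 26.1 and Plin2 at 110.8 ± 53.8 CPM per kb. In Lgr6-negative cells Plin2 stood first at 142 ± 12.8 CPM per kb (SD, n = 2), followed by Elovl5 at 65.5 ± 8.60, Cd36 at 29.3 ± 3.49 and Scd1 at 19.9 ± 3.57 CPM per kb. In Lgr6-positive cells the SDs of neighbours from Idi1 to Plin2 overlapped. Plin2 made up 3.86% and 7.22% of the summed CPM of the 43 genes in Lgr6-positive libraries, against 26.1% and 23.6% in Lgr6-negative libraries.

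Among genes of fatty acid uptake, binding and activation, 2 of 8 were higher (4.49% of all tested genes). At an unadjusted p under 0.05, 3 were higher (14.3% of all tested genes), and the median log2 fold change was 1.58. Lpl, lipoprotein lipase, which frees fatty acids from circulating triglycerides (chromosome 8, 68880491 to 68907448, plus strand), had 435 and 443 CPM in Lgr6-positive libraries, against 31.7 and 22.6 CPM in Lgr6-negative libraries (log2 fold change 4.02 with an SE of 0.47, adjusted p = 0.00175). Cd36, a scavenger receptor that takes up long-chain fatty acids (chromosome 5, 17781690 to 17888801, minus strand), had 413 and 545.5 CPM in Lgr6-positive, against 114 and 96.3 CPM in Lgr6-negative libraries (log2 fold change 2.19 with an SE of 0.41, adjusted p = 0.0132). Without replicate 2 of the Lgr6-negative cells, Cd36 missed the threshold (0.0662, in a range from 1.71e-04). Libraries of the same population agreed closely in both genes.

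Fabp4, the binding protein of adipocytes, macrophages and capillary endothelium, had 122 and 94.1 CPM in Lgr6-positive, against 13.6 and 41.1 CPM in Lgr6-negative libraries (log2 fold change 1.98 with an SE of 0.80, adjusted p = 0.157). Fabp5, its epidermal relative, had 165 and 125 CPM in Lgr6-positive, against 40.1 and 77.1 CPM in Lgr6-negative libraries (log2 fold change 1.31, adjusted p = 0.226). Neither overlapped between populations, and neither passed. Vldlr, a receptor for triglyceride-rich lipoproteins, had 131 and 196 counts in Lgr6-positive, against 1 and 98 counts in Lgr6-negative libraries (log2 fold change 1.22, adjusted p = 0.771). Of the acyl-CoA synthetases, which activate fatty acids, Acsl3 had 68.3 and 88.1 CPM in Lgr6-positive, against 7.18 and 36.4 CPM in Lgr6-negative libraries (log2 fold change 1.84, adjusted p = 0.301, with fractional counts), Acsl1 had 62.0 and 64.7 CPM in Lgr6-positive, against 47.6 and 80.0 CPM in Lgr6-negative libraries, and Acsl4 had 53.7 and 83.0 CPM in Lgr6-positive, against 93.6 and 22.9 CPM in Lgr6-negative libraries. Acsl1 and Acsl4 overlapped, with adjusted p of 0.998 and 0.920, and the fold change of Acsl1, at -0.01, was positive under library-size scaling.

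Several of these genes are also known from fat and capillaries, so markers of both were measured. Of 8 adipocyte markers none passed the filter, their summed level was 75.8 and 15.8 CPM in Lgr6-positive libraries, and all 8 were at 0 in both Lgr6-negative libraries. No library held a count of Cidec, Lep or Retn. The others had counts in Lgr6-positive libraries alone, mostly in 1 replicate. In replicates 1 and 2 these were 516 and 1 for Car3, 0 and 123 for Plin1 and 50 and 0 for Adig. Cfd had 34 and 0 counts there, and Adipoq 18 and 1. Of 7 endothelial markers 4 were higher, with sums of 1237.5 and 1515 CPM in Lgr6-positive, against 202 and 117 CPM in Lgr6-negative libraries, and Gpihbp1, which anchors Lpl on capillaries and is also in the lipid lists below, was at 0 in 1 Lgr6-negative library. Fibroblast markers were higher in 3 of 7, at 878 and 628.5 CPM in Lgr6-positive, against 38.5 and 71.8 CPM in Lgr6-negative libraries, with Pdgfra at 0 in both Lgr6-negative libraries. Red cell markers were higher in 4 of 5, at 651 and 598 CPM in Lgr6-positive, against 18.4 and 3.91 CPM in Lgr6-negative libraries, with Hba-a2 and Hbb-bs at 0 in both Lgr6-negative libraries. Of 7 genes known from sebaceous glands 1 was higher, with sums of 105 and 228 CPM in Lgr6-positive, against 206 and 140.4 CPM in Lgr6-negative libraries, nearly all of the Lgr6-negative sum being Soat1. Their part in the lipid results was not tested.

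**Figure D3:**
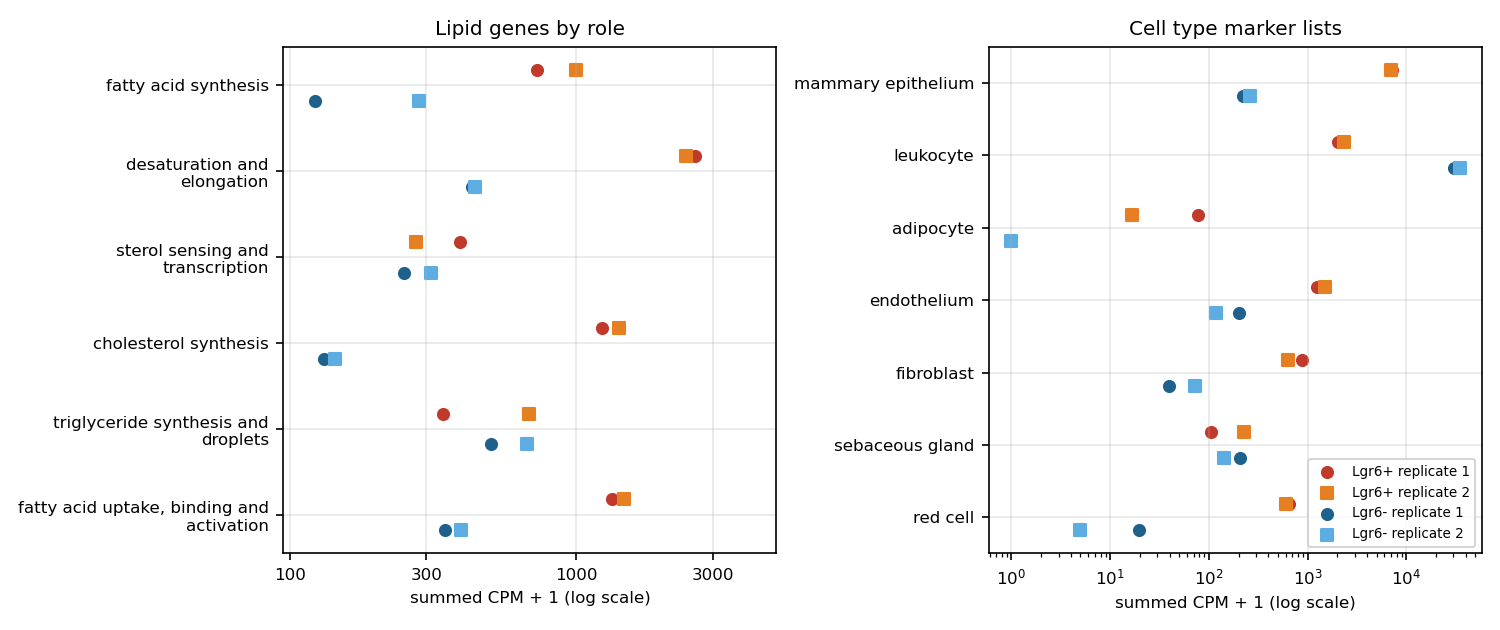
Summed CPM + 1 on a log scale for the 43 lipid genes by role (left) and for marker lists of cell types (right), with 1 point per library and Lgr6-positive points above Lgr6-negative points in each row. Cholesterol synthesis genes summed to 1233 and 1405 CPM in Lgr6-positive libraries, against 131 and 143 CPM in Lgr6-negative libraries, while triglyceride and droplet genes overlapped at 343 and 684 CPM in Lgr6-positive, against 503 and 672 CPM in Lgr6-negative libraries.

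How far replicates lay apart was described for the 41 genes, with no test. The Lgr6-positive libraries differed by more than 2-fold, on CPM + 1, in 11 of the 41 tested members (26.8%, against 49.1% of all tested genes). The Lgr6-negative libraries did so in 20 of 41 (48.8%, against 42.4%). Of these 20, 14 had the lower value in replicate 1, Acaca, Fasn, Sqle and Lss among them, and 6 had it in replicate 2, namely Acss2, Fads1, Idi1, Fdft1, Gpam and Acsl4. The direction was not counted over all tested genes, so this split is not shown to be particular to the members.

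A further 83 genes of the same pathways were measured, of which 63 were tested. Of these, 7 were higher (11.1%, against 4.49% of all genes), 1 was lower (4.57% of all genes), and the median log2 fold change was 1.39. Among those of cholesterol synthesis and uptake, Acat2, a thiolase, had 35.9 ± 3.92 CPM in Lgr6-positive, against 1.17 ± 0.108 CPM in Lgr6-negative cells and did not pass (SD, n = 2 libraries each, as below, log2 fold change 4.92, adjusted p = 0.0693 in edgeR), except in DESeq2 (2.08e-04, in a range up to 0.192), and its counts were fractional. Tm7sf2, a sterol reductase, had 333 and 35 counts in Lgr6-positive libraries, against none in Lgr6-negative libraries and did not pass either (adjusted p = 0.0630), though it did under 4 of 12 alternatives (4.31e-04 to 0.256).

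Of 13 genes of fatty acid synthesis, elongation and activation, 3 were higher (4.49% of all tested genes). Scd3, another desaturase of the cluster on chromosome 19, had 273 and 1045 counts in Lgr6-positive, against 0 and 1 in Lgr6-negative libraries, which is 988 times as much in CPM (95% interval of counting error 177 to 39072, adjusted p = 0.00885). Its estimated counts were fractional, as for Scd1 and Scd2, so the split of reads among these paralogs is uncertain and the interval does not cover it. Elovl4, an elongase of very long chains, was at 72.7 ± 16.5 CPM in Lgr6-positive, against 1.19 ± 1.18 CPM in Lgr6-negative cells (log2 fold change 5.90 with an SE of 1.29, adjusted p = 0.0250) and Tecr, the last reductase of each elongation cycle, at 459 ± 13.2 CPM in Lgr6-positive, against 87.3 ± 70.3 CPM in Lgr6-negative cells (2.39, SE 0.60, adjusted p = 0.0422). Elovl4 was lost without replicate 2 of the Lgr6-negative cells (0.0835, in a range from 5.98e-07) and Tecr without replicate 1 (0.101, in a range from 5.33e-05). Hacd3, the dehydratase of the same cycle, was at 136 ± 17.3 CPM in Lgr6-positive, against 23.1 ± 8.82 CPM in Lgr6-negative cells and did not pass (2.55, adjusted p = 0.0528), though it did under 6 of 12 alternatives (0.00209 to 0.200).

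Among 17 genes of triglyceride handling, Mgll, monoacylglycerol lipase, was higher, with 134 ± 3.28 CPM in Lgr6-positive and 5.55 ± 4.98 CPM in Lgr6-negative cells (log2 fold change 4.59 with an SE of 0.94, adjusted p = 0.0190). The lower gene of all 63 was Agpat4, an acyltransferase for lysophosphatidic acid, at 5.56 ± 4.10 CPM in Lgr6-positive, against 161 ± 29.6 CPM in Lgr6-negative cells (-4.85, SE 0.84, adjusted p = 0.00986). Mgll was lost without replicate 1 (0.0606, in a range from 3.11e-06) and Agpat4 without replicate 2 (0.0603, in a range from 2.99e-08) of the Lgr6-negative cells. Fitm2, a droplet-forming membrane protein, with 125 and 138 counts in Lgr6-positive libraries, and Lpin3, with 111 and 39 counts there, had none in Lgr6-negative libraries and did not pass (adjusted p = 0.0634 and 0.0971). Fitm2 passed under 4 of 12 alternatives (9.01e-04 to 0.170) and Lpin3 under 2 (0.0201 to 0.278).

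In fatty acid uptake, 2 of 6 tested genes were higher (4.49% of all tested genes). Slc27a4, a fatty acid transport protein, was at 158 ± 88.9 CPM in Lgr6-positive, against 11.4 ± 7.28 CPM in Lgr6-negative cells (log2 fold change 3.79 with an SE of 0.83, adjusted p = 0.0243). The call did not hold in limma-voom (0.0776) and without replicate 2 of the Lgr6-positive (0.106) or replicate 1 of the Lgr6-negative cells (0.103), in a range from 5.20e-05. Angptl4, a secreted inhibitor of Lpl, was at 161 ± 29.8 CPM in Lgr6-positive, against 5.55 ± 6.74 CPM in Lgr6-negative cells (4.87, SE 1.13, adjusted p = 0.0314) and passed under all 12 alternatives. Slc27a1 (2.74, adjusted p = 0.163, and 0.0216 in DESeq2, in a range up to 0.384) and Gpihbp1, with 35 and 13 counts in Lgr6-positive, against 0 and 1 in Lgr6-negative libraries (adjusted p = 0.253), did not pass.

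None of 11 further regulators passed in edgeR, where 4.49% of all tested genes were higher and 4.57% lower. At an unadjusted p under 0.05, 3 were above (14.3% of all tested genes) and 1 below (10.8%). DESeq2 called 1 higher (12.1% of all tested genes) and 1 lower (997 of 11661 genes), and limma-voom 1 higher (6.47%). Nr1h2, the liver X receptor beta, was at 9.51 ± 2.51 CPM in Lgr6-positive, against 70.3 ± 1.07 CPM in Lgr6-negative cells (log2 fold change -2.89, adjusted p = 0.0952, and 0.00432 in DESeq2, in a range up to 0.259). The nuclear receptor gene Ppara, with 50 and 245 counts in Lgr6-positive libraries, and its coactivator Ppargc1a, with 37 and 20 counts there, had none in Lgr6-negative libraries (adjusted p = 0.0667 and 0.129), and Ppara passed under 4 of 12 alternatives (7.37e-04 to 0.269). Rxra, the shared partner of these receptors, was at 239.7 ± 159 CPM in Lgr6-positive, against 80.3 ± 8.10 CPM in Lgr6-negative cells (1.58, adjusted p = 0.130). It passed under 1 of 12 alternatives, the fit that left out replicate 1 of the Lgr6-positive cells (0.0150, in a range up to 0.672).

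**Figure D4:**
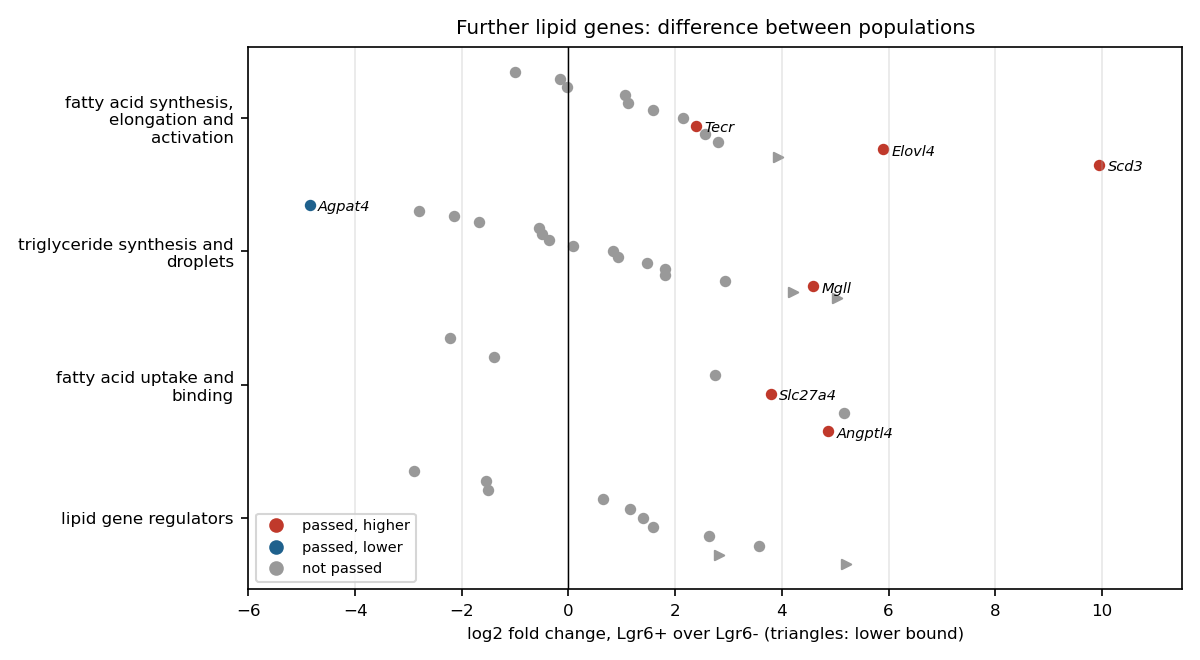
Log2 fold change of Lgr6-positive over Lgr6-negative cells for the tested genes of 4 further lipid lists. Each symbol is 1 gene, red where higher, blue where lower and grey where the adjusted p was not under 0.05. Triangles are lower bounds, and Scd3 and Gpihbp1 are drawn at their counting ratios. Agpat4 at -4.85 is the blue symbol, and the 6 red genes are named.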

How the data were processed

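RNA-seq libraries of sorted mouse mammary cells, 2 Lgr6-positive and 2 Lgr6-negative, were analysed from a gene table in which the authors deposited expected counts. Per the submitters' processing notes, RSEM 1.2.22, STAR 2.4.2a and the mm10 build were used, while the sources used here give no annotation, trimming or strand setting. Expected counts were fractional for 3.36% to 4.86% of genes and were rounded. Genes were filtered with filterByExpr (minimum count 10, minimum total 15), scaled by TMM and tested by the quasi-likelihood test of edgeR 4.0.16 in R 4.3.3, with Benjamini-Hochberg adjustment over 11661 genes. SE is the absolute log2 fold change divided by the square root of F. Differences between libraries of a population far exceeded counting noise (chi-square per degree of freedom of 101 and 86.4). Such values cannot tell libraries of separate animals from separately amplified libraries of the same RNA. Each library was kept as its own replicate. Where a population had no counts, folds are bounds set by 3 counts in each library, and where it had 1 to 3, a ratio with a 95% counting interval is given.

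The members and lists were chosen with earlier results of these data known. Of each further lipid list, up to 4 tested genes with the smallest p were named, except a few genes that are not reported here, and every member was accounted for. Positions and exon overlap came from GENCODE M21 on GRCm38. Alternatives were library-size scaling, DESeq2 size factors, scaling without Rn45s, no filter, a minimum count of 30, DESeq2 1.42.0, limma-voom (limma 3.58.1), a replicate block and leaving out each library.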

Additional observations from a re-analysis of the deposited data

How the results depend on the processing

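The number of members higher in Lgr6-positive cells, 11, ranged from 10 in limma-voom to 15 in DESeq2 over the settings that kept all libraries, and from 8 to 12 when 1 library was left out. None was lower under any of the 12 alternatives. Without replicate 2 of the Lgr6-negative cells, 6 of the 11 calls were kept. A lone library was then assumed to vary like the other population, and the cause of lost calls was not tested. The median over members, 1.79, lay between 1.68 and 2.63 when 1 library was left out. Of the further lipid genes, 8 were called, against 13 with no filter, 18 in DESeq2 and 5 to 10 with 1 library left out. Over all genes 524 were higher, against 967 with no filter, 1407 in DESeq2 and 298 to 718 with 1 library left out. There were 533 lower, against 327 under library-size scaling, 854 with no filter, 997 in DESeq2 and 263 to 843 with 1 library left out. Library-size scaling moved the median of all genes by 0.46 and made 65.8% of calls higher, against 49.6%.

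The labels do not say that replicate numbers pair libraries, and same-numbered libraries did not deviate together (correlation -0.0202 across genes). With a replicate block 12 members, 9 further lipid genes, 678 higher and 662 lower genes were called, and the fold change was 0.29 for Dgat2 and 0.04 for Acsl1.

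Log2 fold changes that turned sign belonged to genes that did not pass. Acsl1 was at 0.47 under library-size scaling, 0.02 with DESeq2 size factors and in DESeq2, 0.00 with the stricter filter and 0.06 in limma-voom. Dgat2 was at 0.24 under library-size scaling and 0.37 in limma-voom, and Plin2 at 0.08 under library-size scaling. Leaving out replicate 1 of the Lgr6-positive cells gave -2.61 for Insig2, -0.40 for Fdps, -0.08 for Dhcr7, 0.31 for Dgat2, 0.07 for Plin2 and 0.02 for Acsl1, and leaving out replicate 2 gave -0.12 for Acsl4. Leaving out replicate 1 of the Lgr6-negative cells gave -0.17 for Scap and -0.32 for Dhcr7, and leaving out replicate 2 gave 2.18 for Dgat2, 0.42 for Acsl1 and -0.44 for Acsl4.

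Over the fits with 1 library left out, the highest values of the genes that turned to negative were 1.55 for Scap, 3.13 for Insig2, 2.62 for Fdps, 1.24 for Dhcr7 and 1.57 for Acsl4, and the lowest of those that turned to positive were -1.31 for Dgat2, -0.96 for Plin2 and -0.34 for Acsl1.

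With 2 libraries in each population and a common dispersion of 0.795, a difference that did not pass is not shown to be absent.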

Other observations

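Genes that burn fatty acids were looked up after the lipid values had been seen. Of 16 genes of fatty acid oxidation, 15 were tested and none passed in edgeR, DESeq2 or limma-voom, with 1 above at an unadjusted p under 0.05 (14.3% of all tested genes) and a median log2 fold change of 0.22. Cpt1a, which admits fatty acids to mitochondria, had 114 and 149.5 CPM in Lgr6-positive libraries, against 165.5 and 130.1 CPM in Lgr6-negative libraries (log2 fold change -0.17 with an SE of 0.50, adjusted p = 0.899 in edgeR).

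Of 10 genes of cholesterol efflux, storage and transport, also chosen after the values were seen, 9 were tested and 1 was higher in edgeR (4.49% of all tested genes), with a median log2 fold change of -0.70. None was lower in edgeR (4.57% of all tested genes), with 2 below at an unadjusted p under 0.05 (10.8%). DESeq2 and limma-voom each called 1 higher (12.1% and 6.47% of all tested genes) and 1 lower (997 and 728 of 11661 genes). Apoe, an apolipoprotein, had 569.7 and 631 CPM in Lgr6-positive libraries, against 103 and 242 CPM in Lgr6-negative libraries (log2 fold change 1.80 with an SE of 0.46, adjusted p = 0.0449). Without replicate 1 of the Lgr6-negative cells it did not pass (0.151, in a range from 0.00104). Soat1, which esterifies cholesterol for storage, had 63.4 and 78.8 CPM in Lgr6-positive, against 206 and 140.3 CPM in Lgr6-negative libraries (-1.28 with an SE of 0.54, adjusted p = 0.177). Npc2, a lysosomal cholesterol carrier, had 208 and 62.5 CPM in Lgr6-positive, against 440.1 and 473 CPM in Lgr6-negative libraries (-1.75 with an SE of 0.56, adjusted p = 0.0898). It passed as lower under 5 of 12 alternatives, which were no filter, DESeq2, limma-voom, the replicate block and the fit without replicate 1 of the Lgr6-positive cells (0.00194 to 0.227 over all 12).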
